A study of Homo sapiens with 6 samples.

Results

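Broad unsplit vehicle regions are long H3K4me2 stretches in vehicle-treated LNCaP cells that were still called as 1 peak in the GSK 24 h list. Per the labels, the cells of that list received the LSD1 inhibitor GSK2879552 together with DHT for 24 h. A vehicle peak was taken when it lay on chromosomes 1 to 22, was at least 1500 bp long and overlapped exactly 1 peak of the GSK 24 h list by at least 1 bp. There were 1500 such regions among 101165 vehicle peaks, of which 97240 lay on chromosomes 1 to 22 and 3425 of these were at least 1500 bp long. The regions were thus chosen by measured values, the vehicle length and the number of GSK 24 h peaks, and values from that contrast are given only as a description. The GSK 4 h list was not used to choose the regions, although both GSK lists are set against the same vehicle list.

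H3K4me2 is dimethylated lysine 4 of histone H3, a mark of enhancers and of the flanks of active promoters. LSD1 (KDM1A) removes mono- and dimethyl groups from this lysine, and GSK2879552 is an irreversible inhibitor of it. A broad peak usually covers several neighbouring nucleosomes, and a nucleosome-depleted centre can divide it into separate flanks when signal there is low.

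The 6 samples form 3 groups with 2 replicates each, all from LNCaP, an androgen-responsive prostate cancer cell line that was kept in hormone-depleted (charcoal-stripped) serum for 3 days. Per the labels, control cells received vehicle and no GSK2879552, whereas both GSK groups received the androgen DHT together with GSK2879552, for 4 h (GSK 4 h) or 24 h (GSK 24 h). The treatment protocol names GSK2879552 alone, so an effect of DHT and an effect of the inhibitor cannot be told apart. The authors combined both replicates into 1 peak list per group, so no value below has a replicate error and no difference between conditions was tested. Intervals are Wilson 95% intervals and cover counting error only.

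The lists were of similar depth, with 9.43 (vehicle), 10.1 (GSK 4 h) and 8.98 (GSK 24 h) tags per kb of effective genome as recovered from the peak values. The shortest peak, which reflects the fragment length, was 221, 186 and 219 bp long, so the GSK 4 h fragments were the shorter ones. Positions are those of the deposited lists (hg19, counted from 1). No gene was assigned to a region, because the gene table used here is in another build.

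Among broad vehicle regions, being divided was the more common outcome at 24 h under the rule used here. Of the 3425 broad regions, 1500 (43.8%, interval 42.1 to 45.5) met 1 GSK 24 h peak, 1750 met 2, 163 met 3 and 8 met 4. In 2 or more peaks were thus 1921 (56.1%, interval 54.4 to 57.7), and no GSK 24 h peak was present at the remaining 4. Which outcome was more common depended on the settings. With GSK peaks limited to a -log10 q from 10, 1852 of the 3425 met exactly 1 peak. With gaps of 200 bp or less merged, 2113 did, so that the unsplit regions were then the larger part. The unsplit regions were shorter than the 1921 divided ones, with a median length of 1657 bp (quartiles 1569 and 1812 bp) against 1773 bp. The longest measured 3443 bp.

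Regions on either side of the length limit met 1 GSK 24 h peak in similar shares. Of 518 vehicle regions between 1450 and 1499 bp, just outside the limit, 320 met exactly 1 GSK 24 h peak (61.8%). Just inside it, between 1500 and 1549 bp, 291 of 451 did so (64.5%). The median vehicle summit height of those in 1 peak was 41.7 outside and 50.4 inside. Their medians were 43.0 and 46.2 in GSK 4 h, and 33.1 and 34.6 in GSK 24 h. The GSK 4 h median was thus above that of vehicle outside the limit and below it inside. Height here is the number of fragments covering the summit (recovered from the fold enrichment and p-value of the peak) divided by the fragments expected there by chance, for which the lowest background of the list was taken as the genome-wide one. Exactly 1500 bp long were 7 members, the first of which were chr1:40366569-40368068 and chr1:87380330-87381829. The former had a height of 142.5 in vehicle, 58.4 in GSK 4 h and 32.6 in GSK 24 h. The latter had heights of 45.1, 54.2 and 55.4 and was thus lowest in vehicle.

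The members were strong within the whole vehicle list but weaker than the divided broad regions. Their median height corresponded to the 92.3 percentile of all vehicle regions on chromosomes 1 to 22 (quartiles 86.1 and 97.1). In the divided broad regions, the median vehicle height was 79.6, against 58.5 in the members. The median fold enrichment over the local background was 7.67 (quartiles 5.99 and 9.49), against 7.94 for the divided broad regions and 4.95 for all vehicle regions. The summit lay in the outermost 25% of the length on either side in 513 members (34.2%, against 26.5% of the divided regions). No other vehicle peak lay within 5 kb of 994 members (66.3%), compared with 72.7% of the divided broad regions and 46.0% of all vehicle regions.

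The summit heights of the members were spread widely in vehicle and narrowly in both GSK lists. In vehicle, the lowest, median and highest heights were 8.16, 58.5 and 208.2, and the quartiles were 33.5 and 122.4. In GSK 4 h, they were 10.1, 51.0 and 193.4, with quartiles of 38.3 and 63.2. In GSK 24 h, they were 7.12, 38.1 and 219.2, with quartiles of 30.0 and 47.3. A height of 100 or more was reached by 488 members in vehicle, by 10 in GSK 4 h and by 7 in GSK 24 h. At the other end, 100 members were below a height of 20 in vehicle, 29 in GSK 4 h and 71 in GSK 24 h. The distributions therefore overlapped in their lower part, and the heights above 100 were largely those of vehicle. The divided broad regions narrowed as well. Quartiles there were 45.1 and 121.9 (vehicle), 39.9 and 59.0 (GSK 4 h), and 30.0 and 45.3 (GSK 24 h). The narrowing was thus not particular to the members.

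**Figure D1:**
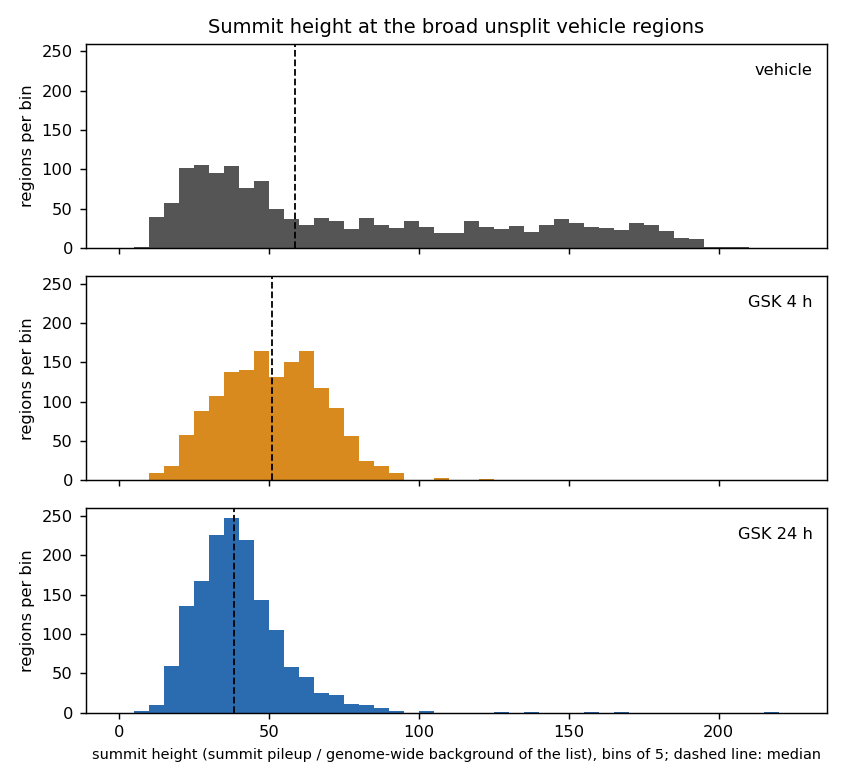
Histograms of summit height (summit pileup over the lowest background of its list) at the 1500 broad unsplit vehicle regions in the vehicle, GSK 4 h and GSK 24 h lists, in bins of 5 with a dashed line at the median. The vehicle heights extend from 8.16 to 208.2 with 488 regions at 100 or more, whereas nearly all GSK heights lie below 100.

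Compared with vehicle, 844 of the 1500 members were lower at 4 h and 1063 were lower at 24 h. The median log2 height ratio was -0.20 at 4 h (quartiles -1.07 and 0.34) and -0.44 at 24 h (quartiles -1.51 and 0.07). These medians depended on the length limit and the measure, as with a limit of 1000 bp they were 0.10 at 4 h and -0.081 at 24 h, and with the deposited fold enrichment the 24 h value was -0.17. In the divided broad regions, the medians were lower, at -0.71 and -1.04. Over all vehicle regions with a GSK peak, the median was above 0, at 0.27 for 4 h and 0.18 for 24 h. A height at least 2-fold lower at 4 h was seen in 414 members (27.6%, interval 25.4 to 29.9), compared with 35.1% of the divided broad regions and 6.91% of all vehicle regions with a GSK 4 h peak. At 24 h, it was seen in 586 members (39.1%), against 51.3% of the divided broad regions and 8.34% of all vehicle regions. A height at least 2-fold higher was seen in 15 members at 4 h (1%, against 6.9% of all regions) and in 2 at 24 h (0.133%, against 4.2%). Between the GSK lists, 1258 members (83.9%) were lower at 24 h than at 4 h, as were 86.5% of the divided broad regions and 61.2% of all vehicle regions with a peak in both.

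These shares depended on the vehicle height. In the 500 members with the lowest vehicle heights (8.16 to 39.3), the median height was 27.3 in vehicle, 35.6 in GSK 4 h and 29.5 in GSK 24 h. None of these was 2-fold lower at 4 h (all regions of such heights, 0.839%) and 2 were at 24 h (0.644%). In the 502 members of middle height (39.8 to 96.9), the medians were 58.5, 53.9 and 42.7. At least 2-fold lower were 8.96% of these at 4 h and 24.3% at 24 h, compared with 23.3% and 39.4% of all vehicle regions of such heights. In the 498 highest members (97.4 to 208.2), the medians were 146.6, 63.2 and 42.7, so that the GSK 24 h median equalled that of the middle members. At least 2-fold lower were 369 (74.1%, interval 70.1 to 77.7) at 4 h and 462 (92.8%, interval 90.2 to 94.7) at 24 h, and 81.8% and 94.7% of all vehicle regions of such heights were. Within each range of height, falls were thus no more frequent among the members than among all vehicle regions.

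Since the vehicle height entered both the ranking and the ratio, the members were also ranked by the list outside each comparison. Ranked by GSK 4 h height, the median log2 ratio of GSK 24 h to vehicle was 0.03 in the lowest 501 members, -0.63 in the middle 505 and -1.26 in the highest 494. Ranked by GSK 24 h height, the median log2 ratio of GSK 4 h to vehicle was 0.17 in the lowest 524, -0.39 in the middle 480 and -0.47 in the highest 496. The order from low to high was the same as with vehicle ranks, with a smaller range. The highest vehicle pileup (442 fragments) equalled 2 times the shortest peak, the ceiling that applies if duplicate tags are removed. On this reading, heights cannot pass 212.1 in vehicle, 197.7 in GSK 4 h and 222.8 in GSK 24 h.

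**Figure D2:**
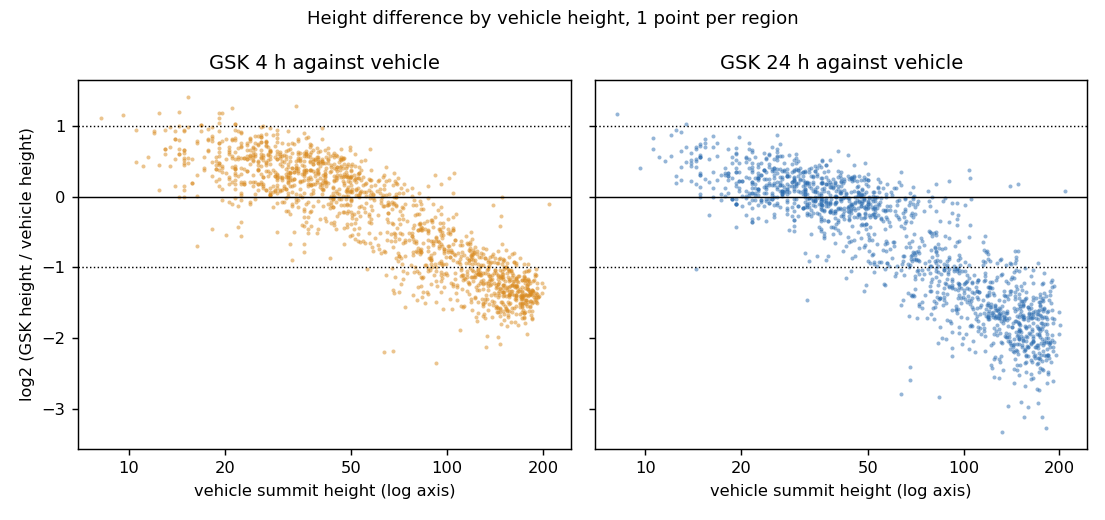
Each point is 1 of the 1500 regions, with its vehicle summit height on a log x axis and the log2 ratio of the GSK height to the vehicle height on the y axis, for GSK 4 h (left) and GSK 24 h (right). Dotted lines mark a 2-fold difference. Regions of low vehicle height lie around or above 0, and most of those of high vehicle height lie below -1, with a few near 0.

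The members with the highest vehicle summits differed in their GSK heights. The second highest, chr2:10219460-10220992, had 419 fragments at its vehicle summit, 156 in GSK 4 h and 113 in GSK 24 h, and its height went from 201.04 to 82.9 and 57.5. The third, chr10:17495321-17496863, went from a height of 199.1 to 85.5 and 51.9, while the 24 h peak covered all of it and was 1807 bp long. In contrast, the highest member, chr1:121483934-121485528, had heights of 208.2 in vehicle, 193.4 in GSK 4 h and 219.2 in GSK 24 h. Its 434, 364 and 431 fragments lay just below 2 times the shortest peak of each list (442, 372 and 438). If that ceiling applies, its similar heights cannot show whether the signal changed. The region borders the longest stretch of chromosome 1 without a peak in any list (21.1 Mb), which holds the centromere.

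At 4 h, most of the members were also in a single peak. Of the 1500, 1211 (80.7%, interval 78.7 to 82.6) met 1 GSK 4 h peak, 263 met 2, 25 met 3 and 1 met 4. Divided at 4 h were thus 289 members (19.3%, interval 17.4 to 21.3), compared with 48.8% of all broad vehicle regions and 6.97% of all vehicle regions, whose median length was 476 bp. Of the 1921 broad regions that were divided at 24 h, 1381 (71.9%, interval 69.8 to 73.9) were divided at 4 h as well. None of the members lacked a GSK 4 h peak, which allows a share of up to 0.2% (3 counts of 1500). None of the 1921 divided broad regions lacked one either, whereas 15.6% of all vehicle regions did.

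The difference between both kinds of broad region was present at each length. Between 1500 and 1599 bp, 18.7% of members and 66.4% of the regions divided at 24 h were divided at 4 h. From 2000 bp, the shares were 21.5% and 81.5%. As the contrast that chose the regions and the 4 h contrast share the vehicle list, these shares are set side by side and were not tested. Of the 1500 members, 94 (6.27%, interval 5.15 to 7.61) had a GSK 4 h gap wider than 200 bp, so most of the divided members had short gaps only. Whether the shorter GSK 4 h fragments contributed to these gaps was not tested.

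**Figure D3:**
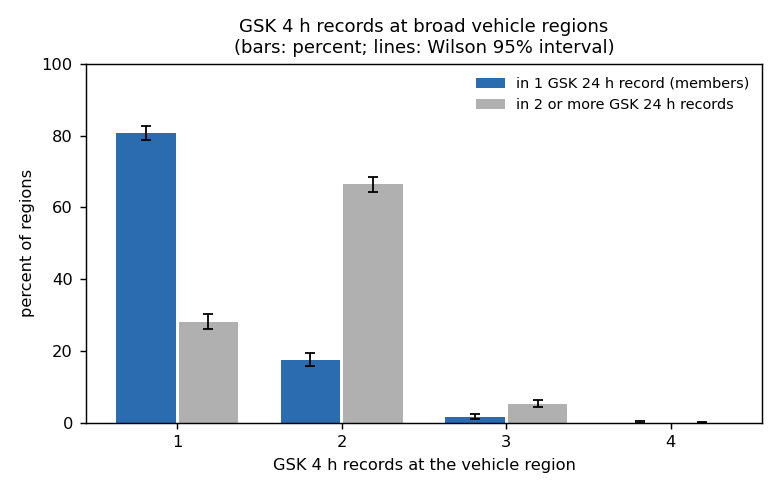
Percent of broad vehicle regions (y axis) that met 1, 2, 3 or 4 GSK 4 h peaks (x axis, named records), for the 1500 members and for the 1921 broad regions in 2 or more GSK 24 h peaks. Lines are Wilson 95% intervals. One peak was met by 80.7% of the members and by 28.1% of the other regions.

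The 289 members divided at 4 h held 316 gaps with a median width of 145.5 bp (range 52 to 1186 bp), and 219 gaps (69.3%) were 200 bp or less. The vehicle summit lay in 22 of the gaps, and the gap centres were a median of 403 bp from it. The single GSK 24 h peak spanned every 4 h gap in 189 of the 289 (65.4%, interval 59.7 to 70.6). In the other 100, at least 1 of the 4 h gaps was not bridged by the 24 h peak. Members divided at 4 h had a median vehicle height of 46.5, against 64.8 for those in 1 peak, and the quartiles overlapped (26.9 and 89.7 against 35.5 and 127.6).

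The members with 3 or more GSK 4 h peaks varied in height. In the 25 with 3 peaks, the log2 height ratio to vehicle ranged from -1.71 to 0.81 at 4 h (median -0.44) and from -2.55 to 0.42 at 24 h (median -0.16), and 9 were at least 2-fold lower at 24 h. The member with 4 peaks and the longest 2 of those with 3 are described here. At chr2:92324175-92326050, 4 GSK 4 h peaks were separated by gaps of 74, 173 and 73 bp, and a single GSK 24 h peak covered 99.8% of the region. Its heights were 89.7 (vehicle), 70.1 (GSK 4 h) and 104.8 (GSK 24 h), and it lies beside the longest stretch of chromosome 2 without a peak. At chr19:49864391-49866742, 3 GSK 4 h peaks with gaps of 95 and 75 bp covered 91.1% of the 2352 bp, and the heights were 62.9, 57.4 and 72.7. At chr1:145381437-145383578, the 3 GSK 4 h peaks had gaps of 53 and 76 bp and the heights were 48.5, 41.4 and 46.8. In these 3 regions, each GSK height was within 2-fold of the vehicle height and the 24 h peak bridged all 4 h gaps.

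The extent of the members was largely kept, although their 4 h spans were shorter relative to vehicle than those of the divided broad regions. The span of the GSK 4 h peaks was a median of 1.01 times the vehicle length (quartiles 0.938 and 1.10) and that of the GSK 24 h peak 0.993 times (quartiles 0.883 and 1.07). In the divided broad regions, the median span, gaps included, was 1.10 times the vehicle length at 4 h and 1.11 times at 24 h. Of the bases in members, 90.7% were covered by GSK 4 h peaks and 88.4% by GSK 24 h peaks. Coverage per region went the other way from the spans. Its median was 94.0% (4 h) and 94.9% (24 h) in members, against 88.8% and 80.8% in the divided broad regions. A span of 1500 bp or more was kept by 1201 members at 4 h (80.1%) and by 1078 at 24 h (71.9%). In the divided broad regions, the shares were 96.2% and 97.6%. The 24 h peak reached past both ends of the vehicle region in 392 members (26.1%), past 1 end in 823 (54.9%) and past neither in 285 (19.0%). It also reached another vehicle peak in 53 members. In the divided broad regions, the 24 h peaks reached past both ends in 61.9%. The 24 h differences between both sets follow largely from how the regions were chosen, and the 4 h values do not use that list.

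Coverage was highest in the middle of the members and fell towards their ends. Between 40 and 60% of the length, 96.5 to 96.7% of members lay inside a GSK 4 h peak and 96.0 to 96.3% inside a GSK 24 h peak. In the outermost 10% on either side, the range was 67.6 to 84.0% at 4 h and 64.3 to 79.4% at 24 h. The regions divided at 24 h showed the opposite profile, with 79.4 to 80.8% in the middle and 85.2 to 94.3% at the ends at 4 h. The dip at 24 h (58.4 to 62.5% in the middle) follows from how those regions were chosen, and the 4 h profile does not use that list.

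**Figure D4:**
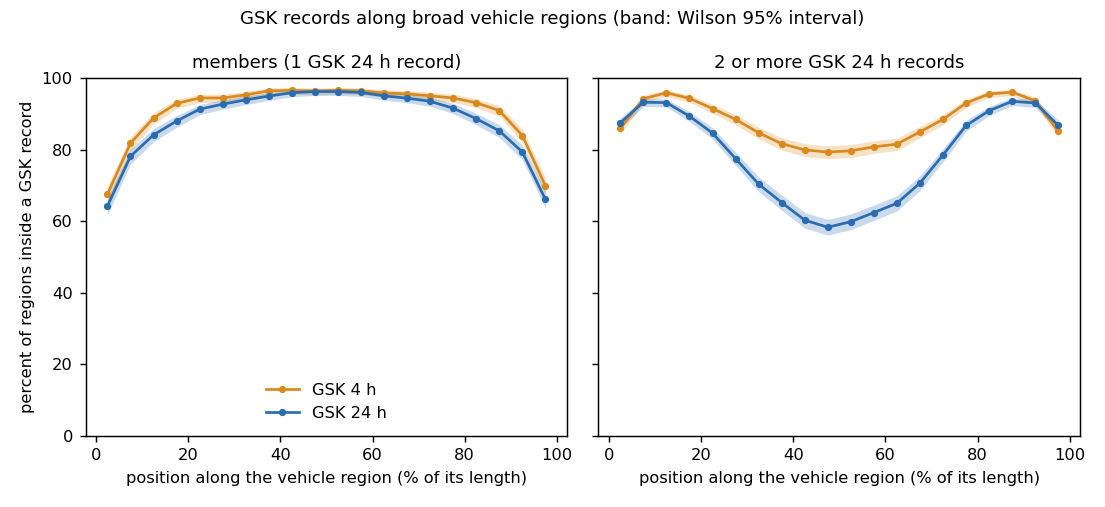
Percent of regions that lay inside a GSK peak (y axis) at each position along the vehicle region, in percent of its length (x axis), for the members (left) and for the broad regions in 2 or more GSK 24 h peaks (right). Bands are Wilson 95% intervals. In the members, coverage peaked near 96% in the middle in both lists, and in the other regions it was lowest there. The 24 h profiles follow largely from how the regions were chosen.

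A small group met the rule although most of the region was no longer covered. At 4 h, 10 members (0.667%) were covered to under 50%, against 7.42% of all vehicle regions with a GSK 4 h peak. In 59 members (3.93%, against 5.84% of all vehicle regions with a GSK 24 h peak), the 24 h peak covered under 50% of the vehicle region, with a median peak length of 857 bp. The median heights of these 59 were 92.1 in vehicle, 44.1 in GSK 4 h and 33.1 in GSK 24 h. The 24 h peak covered 50 to 90% of the region in 466 members (31.1%) and 90% or more in 975. The vehicle summit lay outside the 24 h peak in 38 of the 59, in 119 of the 466 and in 0 of the 975. These counts are largely set by the coverage that defined the groups. At 4 h, 43 of the 59 (72.9%, interval 60.4 to 82.6) were divided, close to the 71.9% of regions that were divided at 24 h. Of the 466, 19.1% (15.8 to 22.9) were divided at 4 h, and of the 975, 16.1% (13.9 to 18.5) were. Another GSK 24 h peak lay within 500 bp of the vehicle region in 39 of the 59 (66.1%, interval 53.4 to 76.9). The same was seen in 159 of the 466 (34.1%, interval 30.0 to 38.5) and in 108 of the 975 (11.1%, interval 9.26 to 13.2). Partial loss of coverage was thus not confined to the 59. For these 59, the name of an unsplit region holds by the rule only, since most of the vehicle region lay outside the 24 h peak. The distance of 500 bp was chosen after the data were seen.

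Among members in 1 peak at each time, 3 had the lowest coverage at 4 h. At chr11:67980368-67982227, the GSK 4 h peak covered 42.0% and the GSK 24 h peak 39.3% of the region, with heights of 130.03 in vehicle, 73.9 in GSK 4 h and 41.7 in GSK 24 h. At chr12:112036319-112038121, the coverage was 38.2% and 38.5%, and the GSK summits lay 1336 and 1416 bp from the vehicle summit. At chr3:129530569-129532073, the coverage was 34.9% at 4 h and 93.8% at 24 h, while the region was weak in every list, with 34, 19 and 35 fragments at the summit. The first 2 of these kept only 1 end at both times, and the third was covered again at 24 h.

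The position of the summit was less stable than the extent. The strongest GSK summit lay 500 bp or more from the vehicle summit in 468 members at 4 h (31.2%, interval 28.9 to 33.6) and in 528 at 24 h (35.2%, interval 32.8 to 37.7). These shares depended on the limits, as they were 17.4% and 19.1% with a length limit of 1000 bp, and 51.8% and 56.7% with a summit distance of 250 bp. Over all vehicle regions with a GSK peak, 8.49% (4 h) and 9.13% (24 h) had such a distance, and the median length of all vehicle regions (476 bp) was below this distance. In the divided broad regions, which are of similar length, the shares were 43.5% and 54.5%. The summit stayed within 100 bp in 453 members at 4 h and in 423 at 24 h. The vehicle summit itself remained inside a GSK peak in 1438 members at 4 h (95.9%) and in 1343 at 24 h (89.5%).

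The longest members show how a summit can move along a kept region. The longest, chr1:152081514-152084956 (3443 bp), was covered to 100% at 4 h and to 99.4% at 24 h by single peaks of 3648 and 3465 bp. Its heights were 77.7 (vehicle), 78.1 (GSK 4 h) and 74.3 (GSK 24 h), while the summit lay 2011 and 1828 bp from that of vehicle. The second, chr6:58776254-58779581 (3328 bp), had heights of 104.6, 107.9 and 125.1 and was covered completely at both times. It lies beside the longest stretch of chromosome 6 without a peak in any list. The third, chr15:41219824-41223087 (3264 bp), had heights of 74.8, 80.2 and 65.1, and its summit lay 272 bp away at 4 h and 2315 bp away at 24 h. These 3 regions had low fold enrichments in vehicle (3.34 to 4.02) and similar heights in each list. The fourth, chr3:183977462-183980400, had a fold enrichment of 6.29 and went from a height of 164.6 to 83.95 and 80.4. Its coverage was 82.6% at 4 h and 77.3% at 24 h, so that this region was both lower and narrower in the GSK lists. Full coverage at 4 h by 1 peak was seen in 329 members, and the longest of these were the first 2 regions above and chr15:100466157-100469023, with heights of 35.5, 42.0 and 42.7.

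**Figure D5:**
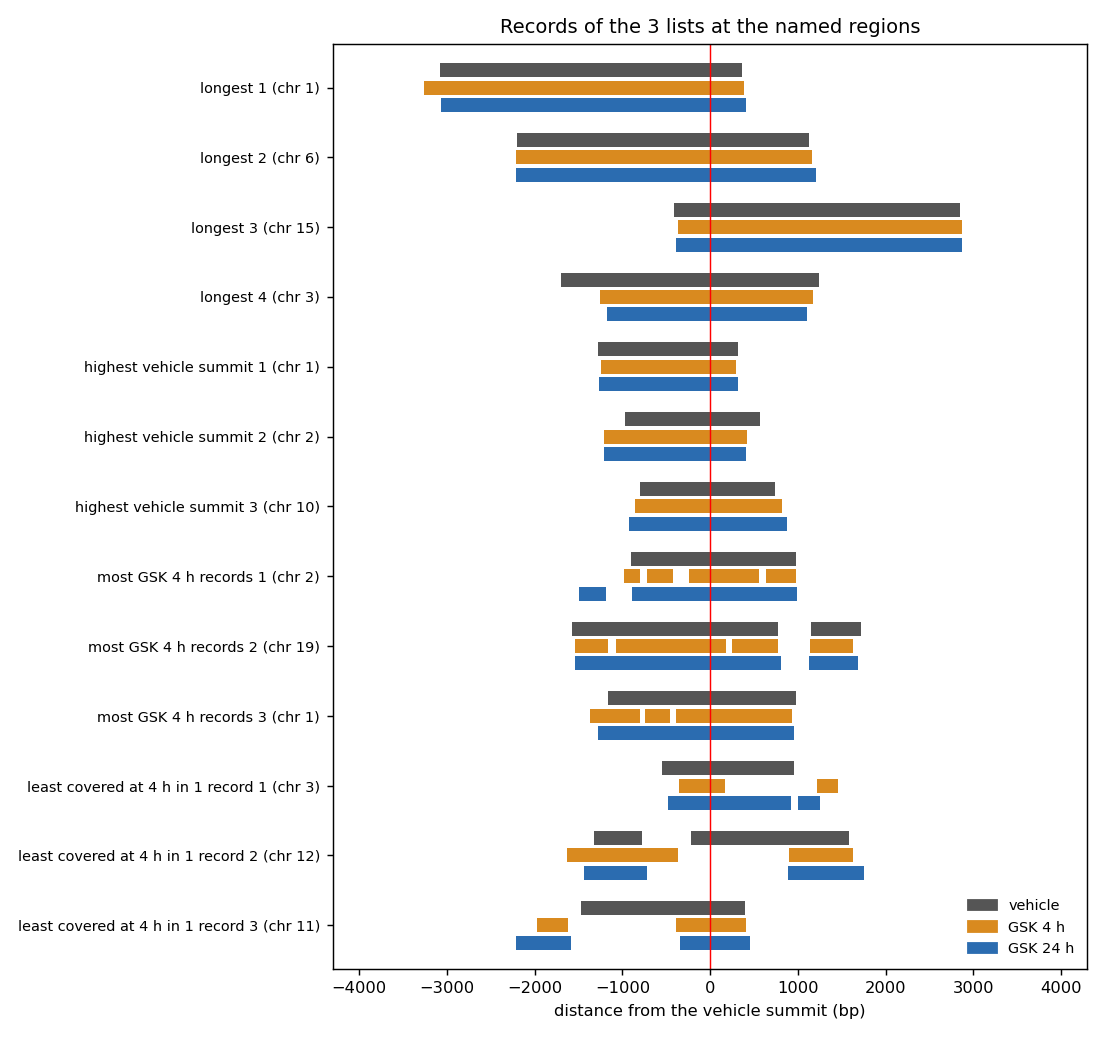
Peaks of the vehicle, GSK 4 h and GSK 24 h lists at 13 named regions, drawn to scale as bars against the distance from the vehicle summit in bp (red line), with neighbouring peaks where they lie in the window. The 4 longest regions and the 3 highest were in 1 peak in each list, the 3 with the most GSK 4 h peaks show short gaps at 4 h only, and the 3 least covered at 4 h show short GSK 4 h peaks.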

How the data were processed

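H3K4me2 ChIP-seq of LNCaP cells was deposited as 1 narrowPeak list per group, with both replicates combined by the authors. The submitters' processing notes name BWA 0.7.2-r351, SAMtools 0.1.18, MACS2 2.0.10.20131216 and the build hg19 (GRCh37), and the settings are not given in the sources used here. Per the file headers and values, the deposited fold enrichment is a ratio of the summit over its local background, and the deposited -log10 p-values, -log10 q-values and display score (about 10 times the -log10 q-value) are those of the peak caller, not normalised between lists.

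From these, the pileup and local background of each summit were solved for jointly. The fold was read as (pileup + 1) over (background + 1) and the p-value as a Poisson tail, and a whole-number pileup had to return the p-value within 0.001 on the -log10 scale. This succeeded for 99.998% of vehicle peaks (all but 2) and 100% of GSK peaks. On 9916 simulated vehicle peaks, 100% were returned right, and 0% of 10084 fractional pileups were taken for whole. The simulation used the same formulas, so it checks the solving step and not whether the deposited values follow them. Whether an input library served as control is not given in the sources used here. Where several GSK peaks met a region, the highest was used for height and summit. Analyses used Python 3.11.15, numpy 2.4.6, scipy 1.17.1 and pandas 2.3.3.

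Members, comparisons and named regions were chosen with earlier results of these data known. Named regions are the 4 longest, the 3 highest, the 3 with the most GSK 4 h peaks, the 3 least and 3 most covered at 4 h in 1 peak (ties by length) and the first 2 at the length limit. Alternatives were length limits of 1000 and 2000 bp, overlap of 50% of the smaller peak, -log10 q limits of 5 and 10, merging of gaps of 200 bp or less, chromosomes X and Y, a summit distance of 250 bp, fold in place of height and the nearest peak. Leaving out members within 1 Mb of the longest peak-free stretch, ranking by the list outside a comparison and counting only 4 h gaps over 200 bp were added after seeing the data. Gene lists, gene context and sequences were not run, since no hg19 reference was used.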

Additional observations from a re-analysis of the deposited data

How the results depend on the processing

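No paired analysis was possible because the authors called peaks on merged replicates, which also leaves no single replicate to omit. Of 102 alternative values, 64 stayed within a range around the reported value, 37 moved beyond it and 1 changed sign. This range was the Wilson interval for shares of members and 1.5 times either way for their number. For medians and covered bases, it was not a Wilson interval. No alternative and no range brings in replicate spread, and the ranges of shares, medians and covered bases are narrow at this number of regions. With a length minimum of 1000 bp, there were 9741 members, of which 86.0% were in 1 GSK 4 h peak and 14.0% were divided at 4 h. Their covered bases at 4 h were 89.2%, the summit lay away in 17.4% (4 h) and 19.1% (24 h), and the median log2 height ratio was 0.10 at 4 h, against -0.20 as reported, and -0.081 at 24 h. The cause was not tested. With a minimum of 2000 bp, there were 144 members, of which 78.5% were in 1 GSK 4 h peak and 21.5% were divided. Their covered bases at 24 h were 89.2% and the summit shares were 36.8% and 46.5%. With an overlap of 50% of the smaller peak, the length ratio at 24 h was 0.972, the covered bases were 88.4% (4 h) and 83.8% (24 h), and the log2 height ratios were -0.36 and -0.69. With GSK peaks limited to a -log10 q from 5, the covered bases at 24 h were 87.3%. With a limit of 10, 0.324% of members had no GSK 4 h peak, the length ratio at 24 h was 0.956, the covered bases were 87.9% and 81.6%, and the summit share at 24 h was 38.1%. With gaps of 200 bp or less merged, there were 2113 members, of which 93.5% were in 1 GSK 4 h peak and 6.53% were divided, the length ratios were 1.04 and 1.03, and the covered bases were 92.8% and 90.7%. The log2 height ratios were then -0.32 and -0.63 and the summit share at 24 h was 38.1%. With the distance set at 250 bp, the summit shares were 51.8% and 56.7%. With fold enrichment in place of height, the log2 ratio at 24 h was -0.17. Keeping the reported members and counting only gaps over 200 bp, chosen after seeing the data, 6.27% were divided at 4 h. The GSK peak nearest to the vehicle summit was tried for the log2 height ratio at 4 h only, which was then -0.24. Adding X and Y or leaving out members near the longest peak-free stretch moved none of the values beyond its range.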

Other observations

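The regions in this part were chosen after their values were seen. There were 7 members with a GSK 24 h height of 100 or more, with vehicle heights from 89.7 to 208.2 and log2 ratios from -0.03 to 0.38. A choice by a high 24 h height largely sets these ratios. Of the 7, 6 lay within 1 Mb of the longest stretch of their chromosome without a peak in any list. Examples are chr10:42598997-42600529, with heights of 139.6 (vehicle), 128.6 (GSK 4 h) and 155.1 (GSK 24 h), and chr19:27731863-27733445, with heights of 148.3, 147.7 and 167.9. The seventh, chr9:68412525-68414310, had heights of 105.1, 132.3 and 102.7. Such stretches hold the centromere on most chromosomes, and the sequence next to them is rich in satellite repeats. In all, 27 members lay within 1 Mb of such a stretch, with a median fold enrichment of 5.37 and a median log2 ratio of -0.10 at 24 h, against 7.68 and -0.46 for the other 1473. Of the 12 among them with a vehicle height of 100 or more, 6 were at least 2-fold lower at 24 h, compared with 448 of 476 elsewhere. Among the 12, most of those not 2-fold lower also belong to the 7 chosen above by a high 24 h height. This contrast is therefore not separate from that choice. The part that alignment to repeats has in these values was not tested.

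The largest fall in height at 24 h was that of chr14:101033891-101035539, which had 276 fragments at its vehicle summit, 57 in GSK 4 h and 26 in GSK 24 h. It was followed by chr20:3766162-3767673 with 378, 111 and 37 fragments and by chr2:236578072-236579734 with 322, 82 and 35. The first was covered to 89.7% by its 24 h peak and the second to 37.6%. The 2 members that were at least 2-fold higher at 24 h were weak in vehicle. At chr10:25754575-25756120, there were 17 (vehicle), 33 (GSK 4 h) and 36 (GSK 24 h) fragments, and at chr8:29097808-29099318 there were 28, 34 and 54.

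The share of broad regions that stayed in 1 GSK 24 h peak ranged from 27.6% (21 of 76, interval 18.8 to 38.6) on chromosome 22 to 54.1% (20 of 37, interval 38.4 to 69.0) on chromosome 21. It was 50.4% (interval 44.0 to 56.8) on chromosome 17 and 36.5% (interval 30.1 to 43.5) on chromosome 11. Chromosome 1 held the most members (171). The median log2 height ratio of members at 24 h was -0.06 on chromosome 19 (104 members) and -1.24 on chromosome 2 (75 members), where the median vehicle heights were 50.1 and 92.1. The ratio did not follow the vehicle height on every chromosome. It was -0.30 on chromosome 14 and -0.90 on chromosome 20, where the median vehicle heights were 75.8 and 57.6.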
